A study of Urocitellus parryii with 3 samples.

Results

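Liver small RNA of arctic ground squirrels (Urocitellus parryii) was compared between the library labelled early arousal and the library labelled late torpor, the 2 from hibernating animals in a series of 3 libraries. Hibernators alternate between multi-day torpor, when body temperature and metabolism are low, and short arousals, when the animal rewarms. The early arousal library was made from the pooled RNA of 4 animals and the late torpor library from that of 4 other animals. Per the labels, hibernating animals carried temperature transmitters, lived under 4 h of light and 20 h of dark and passed at least 4 torpor bouts. The labels give killing on day 4 of a bout for hibernating animals, with no separate time for early arousal. The other library, from 6 summer animals after reproduction, housed under 16 h of light and 8 h of dark, is given beside some results for reference only. No age, sex or strain was given. With 1 pooled library a stage there is no replicate and no test: every ratio below compares 2 libraries, and every interval is an exact 95% interval that covers counting error only.

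The early arousal library held 5611673 placed reads and the late torpor library 5860476. Reads with the first 18 bases of a named miRNA made up 92.5% of these in early arousal and 95.1% in late torpor. The liver label fitted the hepatocyte miRNA miR-122-5p, which held 4062934 reads in early arousal and 4468981 in late torpor. No read group was given the name miR-192-5p, miR-194-5p, miR-148a-3p or the hypoxia-induced miR-210-3p. Unnamed read starts were not compared with the sequences of these miRNAs, so their absence was not shown. Levels are given as CPM, counts per 1000000 of the library's miRNA reads times a trimmed-mean factor (1.09 for early arousal, 0.916 for late torpor). The early arousal library differed from the late torpor library in general read features too. It held 255868 distinct reads against 190722, and no adapter was found in 15.9% of its reads against 11.9%, with 16.8% after reproduction. Near copies of abundant miRNAs, which differ from them at a few bases, made up 2.99% against 1.95% of reads. Their part in the results below was not tested.

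miRNAs are RNAs of about the length of the reads' inserts, cut from hairpin precursors, that lower the output of mRNAs pairing with their seed. tRNAs and Y RNAs are longer RNAs from which endonucleases cut defined pieces. Cleavage in the anticodon loop gives long 5′ and 3′ pieces, and cleavage in the T-loop gives short pieces that keep the CCA added to every mature tRNA 3′ end. Such pieces are known from stressed and injured tissue and also appear when RNA decays.

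The sequences on which the results turn were read from the deposited table, 5′ to 3′ and written with T for U. The first set shows the commonest insert of miRNAs that differed most or that share a seed, with the seed (bases 2 to 8) in capitals.
miR-487b-3p: aATCGTACagggtcatccactt
miR-433-3p: aTCATGATgggctcctcggtgt
miR-708-5p: aAGGAGCTtacaatctagctgg
miR-9-3p: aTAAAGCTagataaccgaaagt
miR-129-3p: aAGCCCTTaccccaaaaagcat
miR-181a-5p: aACATTCAacgctgtcggtg
miR-181b-5p: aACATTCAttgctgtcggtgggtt
miR-181c-5p: aACATTCAacctgtcggtgagttt
miR-144-3p: tACAGTATagatgatgtacta
miR-144-5p: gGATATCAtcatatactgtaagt
miR-451a-5p: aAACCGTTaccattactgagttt
miR-184-3p: tGGACGGAgaactgataagggt
miR-126-3p: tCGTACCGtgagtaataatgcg

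The second set shows the commonest read of tRNA and rRNA pieces, with a terminal CCA in capitals. The first 2 begin at the 5′ end of their tRNA, had no adapter found and are shown over their placed bases, the next 3 end at the CCA, and the last begins at the 5′ end of 28S rRNA.
tRNA-Lys-CTT 5′ piece: gcccggctagctcagtcggtagagcatggg
tRNA-Gly-GCC 5′ piece: gcattggtggttcagtggtagaattct
tRNA-Thr 3′ piece: atctcgctggggcctCCA
tRNA-Pro 3′ piece: atcccggacgagcccCCA
tRNA-Ile 3′ piece: atccccgtacgggccaCCA
28S rRNA 5′ piece: cgcgacctcagatcagacg

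Most miRNAs stood close to the same level in both libraries. Of 232 named miRNA forms, 127 had at least 100 reads over both libraries, and 101 of these were within 1.5-fold. At least 1.5-fold higher in early arousal were 16 (12.6%), and at least 1.5-fold lower were 10 (7.87%). Counting intervals were wholly above 1 in 40 cases (31.5%) and wholly below it in 38 (29.9%), while 49 included 1. The median ratio was 0.996, and the log2 ratios had an SD of 0.49 across miRNAs. Few abundant miRNAs were past it: of 53 with at least 1000 reads, 2 were higher and 2 lower at that limit, and 18 of the 26 past it had under 500 reads. Past 2-fold, 1 was higher and 4 were lower. Plain scaling to miRNA reads multiplies every ratio by 1.19, a log2 shift of 0.25, and scaling to all placed reads one of 0.21. The 1.5-fold split was then 29 higher and 7 lower, and 28 higher and 7 lower, so a ratio between 0.841 and 1 changes side under plain scaling.

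**Figure D1:**
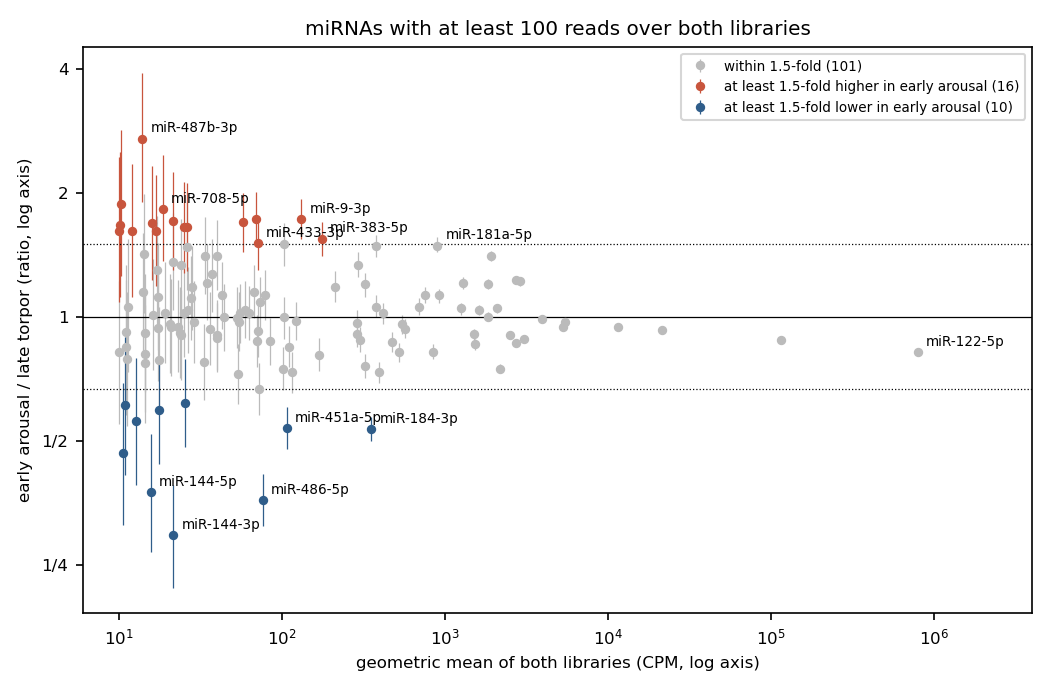
Ratio of early arousal to late torpor (log axis) for the 127 miRNAs with at least 100 reads, against their geometric mean level in CPM (log axis). Bars are 95% counting intervals and dotted lines mark 1.5-fold. The 16 higher and 10 lower miRNAs lie mostly at low levels, while miR-122-5p at the far right has a ratio of 0.821.

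The clearest group on the lower side was that of the red cell miRNAs, which are made in erythroid cells and carried in blood. All 6 listed members had a ratio below 1, with a median of 0.419, and 5 of the 6 were at least 1.5-fold lower, against 7.87% of all miRNAs compared. miR-144-3p had 66 reads in early arousal, 202 in late torpor and 109 after reproduction, or 11.7, 39.6 and 20.7 CPM. Its ratio of early arousal to late torpor was 0.295 (interval 0.220 to 0.391), the lowest of the 127. miR-144-5p, by its name the other arm of that hairpin but placed here at 3 positions, with the one listed on GeneScaffold_1737, had 54, 130 and 53 reads, or 9.55, 25.5 and 10.1 CPM, and a ratio of 0.375 (0.268 to 0.519). Late torpor stood highest of the 3 libraries for both arms.

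miR-451a-5p was placed beside miR-144-3p on 1 minus strand, at GeneScaffold_2360:54187-54209 and GeneScaffold_2360:54321-54341, in scaffold coordinates of the deposited table, for which no build name was found. It is cut by Argonaute rather than Dicer and is the most abundant red cell miRNA. It had 443, 744 and 356 reads in early arousal, late torpor and post-reproduction and a ratio of 0.537 (0.477 to 0.605). miR-486-5p is another main miRNA of red cells and had 258, 648 and 497 reads and a ratio of 0.359 (0.310 to 0.416). The minor arm, miR-486-3p, had 41 reads in early arousal and 79 in late torpor, 0.468 as a ratio (0.313 to 0.692). For the miR-486 arms early arousal was the lowest library, and post-reproduction lay nearer to late torpor. miR-16-5p, which red cells share with many tissues, had a ratio of 0.733 (0.654 to 0.821). The summed level of the list was 251 CPM in early arousal, 488 in late torpor and 309 after reproduction. In RNA from whole tissue, fewer cells of a type and less RNA per cell cannot be told apart.

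The remaining 5 lower miRNAs were of several kinds. miR-184-3p, abundant in eye and brain, had 1460 reads in early arousal, 2468 in late torpor and 4198 after reproduction, a ratio of 0.534 (0.500 to 0.570). It was the most abundant miRNA past 1.5-fold on either side. miR-146a-5p, induced by inflammatory signalling, had 77 against 117 reads and a ratio of 0.594 (0.440 to 0.799). miR-216b-5p had 54 against 87 reads and a ratio of 0.560 (0.391 to 0.796). miR-25-5p, the minor arm of a hairpin of the miR-106b-25 cluster, had 113 against 165 reads and a ratio of 0.618 (0.482 to 0.790). Under plain scaling the ratios of miR-146a-5p and miR-25-5p were 0.707 and 0.735, short of the limit, as was miR-126-3p at 0.726.

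The endothelial miR-126-3p had 48 reads in early arousal, 71 in late torpor and 55 after reproduction, a ratio of 0.610 (0.414 to 0.893). That value rests on the start used here. With starts up to 2 bases away it had 255 against 260 reads and a ratio of 0.887, within 1.5-fold. Its partner arm miR-126-5p had 129 reads in both and a ratio of 0.903 (0.702 to 1.16). The leukocyte miRNA miR-142-5p had 336 against 454 reads, a ratio of 0.668 (0.578 to 0.771), just inside 1.5-fold. Most of its reads began 2 bases before the listed start, 1358 against 1918, and these had a ratio of 0.639 (0.596 to 0.685). With starts up to 2 bases away its ratio was 0.645, past 1.5-fold, and as listed it was 0.795 under plain scaling. Apart from it and miR-146a-5p, no leukocyte miRNA of the list had 100 reads.

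On the higher side, miR-487b-3p stood out. It had 129 reads in early arousal, 43 in late torpor and 70 after reproduction, or 22.8, 8.43 and 13.3 CPM. The ratio was 2.71 (1.90 to 3.92), the only one past 2-fold. miR-487b belongs to the large miRNA cluster of the imprinted DLK1-DIO3 region, expressed from the maternal chromosome. Taken as a list, which was drawn up after values had been seen, 8 of 22 members of that region had at least 100 reads. The ratio was above 1 for 7 of the 8, with a median of 1.41 against 0.996 over all 127, and 6 intervals lay above 1. miR-433-3p, with 492, 295 and 330 reads in the 3 libraries, was also past 1.5-fold at 1.51 (1.30 to 1.75). miR-410-3p at 1.42, miR-411-5p and miR-539-3p at 1.41 each and miR-543-3p at 1.27 were within it, as was miR-432-5p at 1.13. miR-889-3p was the exception, with 78 against 77 reads and a ratio of 0.914 (0.659 to 1.27), which is 1.09 under plain scaling, on the same scaffold as miR-487b-3p. The summed level was 340 CPM in early arousal, 248 in late torpor and 238 after reproduction.

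The 3 detected members of the miR-181 family, known from lymphocytes, endothelium and brain, had nearly equal ratios. They share 1 seed and differ after it, as the sequences above show. miR-181a-5p had 6184 reads in early arousal, 3734 in late torpor and 3802 after reproduction, a ratio of 1.49 (1.44 to 1.56). miR-181b-5p had 2616, 1588 and 1625 reads and the same ratio, 1.49 (1.40 to 1.58). miR-181c-5p, with 118, 63 and 53 reads, was past 1.5-fold at 1.69 (1.23 to 2.33). For each of the 3, early arousal was the high library and late torpor lay close to post-reproduction. miR-181a-5p and miR-181b-5p lie together on the minus strand of GeneScaffold_616, and miR-181c-5p on another scaffold. Under plain scaling all 3 are past 1.5-fold.

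miRNAs of stellate and smooth muscle cells, which lie beside liver sinusoids and in vessel walls, were mostly higher. Of 14 listed, 9 had at least 100 reads, 8 had a ratio above 1 and 3 were past 1.5-fold, against 12.6% of all, with a median of 1.20. miR-143-3p had 2259 CPM in early arousal, 1607 in late torpor and 1931 after reproduction, a ratio of 1.41 (1.37 to 1.45). Its other arm miR-143-5p had a ratio of 1.65 (1.28 to 2.13). From the same transcript, miR-145-3p had 72 against 40 reads and a ratio of 1.62 (1.09 to 2.45), or 1.49 with starts up to 2 bases away, and miR-145-5p 39 against 8 reads, below the minimum of 100. miR-497-5p had 190 against 104 reads and a ratio of 1.65 (1.29 to 2.12), while miR-195-5p from the same scaffold had 1.02 (0.801 to 1.31). miR-199a-3p, another abundant miRNA of this list, had 2119 CPM in early arousal and 2024 in late torpor, a ratio of 1.05 (1.02 to 1.07). miR-100-5p, miR-99a-5p and miR-125b-5p had ratios of 1.18, 1.20 and 0.966.

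miR-9-3p, a neural miRNA, had 970 reads in early arousal, 506 in late torpor and 502 after reproduction, a ratio of 1.73 (1.55 to 1.93). Its other arm miR-9-5p had 1908, 1284 and 1305 reads and a ratio of 1.34 (1.25 to 1.44). With starts up to 2 bases away, miR-9-3p had a ratio of 1.49. miR-129-3p, cut like miR-129-5p from 1 hairpin, had 427, 227 and 211 reads and a ratio of 1.70 (1.44 to 2.00), and miR-129-5p one of 1.48 (1.16 to 1.90). miR-383-5p had 1234, 718 and 761 reads and a ratio of 1.55 (1.41 to 1.70). In these miRNAs early arousal stood apart and the other 2 libraries lay together. The neural miR-124-3p had 1587 against 1627 reads and a ratio of 0.880 (0.821 to 0.944), which moves above 1 under plain scaling. The other neural list member, miR-128-3p, had 1.13, so 3 of the 4 were above 1 and 1 was past 1.5-fold. Over all 127 miRNAs 61 were above 1 and 12.6% were past 1.5-fold on that side.

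miR-708-5p, which is cut from an intron of a gene for a membrane protein, had 142, 70 and 61 reads and a ratio of 1.83 (1.37 to 2.47). miR-365-2-5p had 79, 38 and 82 reads and a ratio of 1.88 (1.26 to 2.84). miR-365-1-5p, from a second locus, had 159, 84 and 182 reads and a ratio of 1.71 (1.30 to 2.25). For both miR-365 loci late torpor was the low library. The remaining ones were miR-452-5p at 1.67 (1.12 to 2.52), miR-873-5p at 1.62 (1.12 to 2.35) and miR-23b-5p at 1.62 (1.19 to 2.21). miR-23b-5p had a ratio of 1.35 with starts up to 2 bases away. The first of 2 forms of miR-151-3p had 517 against 270 reads and a ratio of 1.73 (1.49 to 2.01), and with both forms summed it was 1.26 (1.14 to 1.39). Among the 16 higher miRNAs early arousal was the highest of the 3 libraries in 14, and among the 10 lower ones late torpor was the highest in 7.

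**Figure D2:**
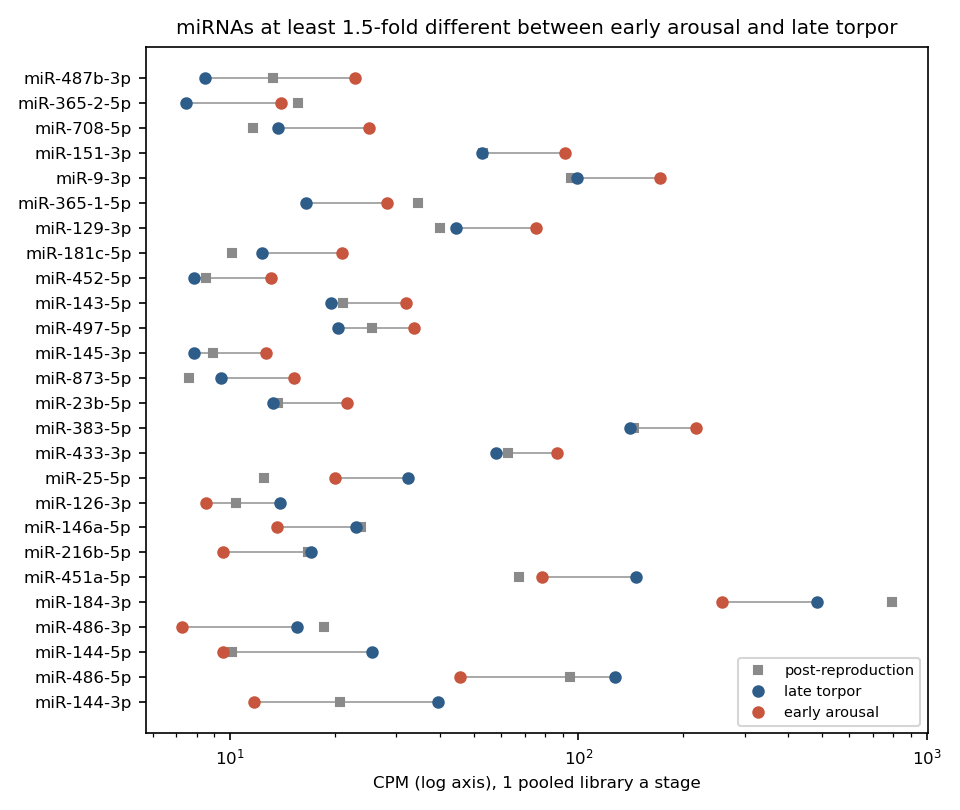
Level of the 26 miRNAs at least 1.5-fold different between early arousal and late torpor, in CPM (log axis), 1 point per pooled library, ordered by ratio. Squares give the post-reproduction library. In 14 of the 16 higher miRNAs the early arousal point lies farthest right, and in 7 of the 10 lower ones the late torpor point does.

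The most abundant miRNAs and most families showed smaller differences. miR-122-5p had 718807 CPM in early arousal and 875911 in late torpor, a ratio of 0.821 that becomes 0.976 under plain scaling. Its other arm miR-122-3p lay on the other side of 1, with 111 against 77 reads and a ratio of 1.30 (0.964 to 1.76). let-7f-5p, the second most abundant, had a ratio of 0.877, and the let-7 family a median of 0.931 over 7 members, of which let-7d-5p at 1.21 alone was above 1 as scaled here, though all 7 are above 1 under plain scaling. The miR-29 family had a median of 0.960, the miR-30 family 0.879, the miR-26 pair 0.953 and the clusters of miR-23, miR-27 and miR-24 0.947. miR-221-3p had 0.908, and miR-222-3p 1.06. These medians move above 1 under plain scaling, and no member was past 1.5-fold. miR-103-3p and miR-107-3p, which act in insulin signalling, had ratios of 1.22 and 1.20 and together 5211 against 4296 CPM. miR-1-3p, the miRNA of striated muscle, had 16985, 12493 and 8765 reads and a ratio of 1.23 (1.20 to 1.26), and miR-206-3p had 1.06 (0.734 to 1.55). The miR-17-92 and miR-106b-25 clusters had a median of 0.810, with 6 of 7 members below 1, of which miR-106b-5p at 0.890 and miR-17-3p at 0.936 move above it under plain scaling. In the metabolic list, miR-21-5p had 1869 against 2497 CPM and a ratio of 0.748 (0.729 to 0.768), miR-378a-3p one of 0.882 and miR-152-3p one of 0.821. miR-33a-5p had 434 against 361 reads and a ratio of 1.09 (0.942 to 1.25). For miR-101-3p the ratio was 0.987 at the listed start. Most of its reads began 1 base before that start, 24241 against 20651, and these had a ratio of 1.06 (1.04 to 1.08). The miR-15/16 family had a median of 1.02 over 5 members, with miR-497-5p past 1.5-fold, and the epithelial miR-200a-3p a ratio of 0.772 (0.554 to 1.07).

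Outside the starts of named miRNAs the 2 libraries differed far more. Counted by scaffold, strand and 5′ position, 4334 start positions had at least 100 reads. Of these, 739 (17.1%) were at least 2-fold higher in early arousal and 791 (18.3%) at least 2-fold lower. At the starts of named miRNAs 1 of 217 positions was higher (0.461%) and 8 were lower (3.69%). Elsewhere 738 of 4117 were higher (17.9%) and 783 lower (19.0%). Most positions outside miRNAs come from reads placed many times, so each 18-base read start was also counted once. There were 463 such starts outside miRNAs with at least 100 reads, 72 higher (15.6%) and 28 lower (6.05%). These include 189 near copies of abundant miRNAs, of which 35 were higher and 4 lower. A further 40 were starts of named miRNAs moved by a few bases, none of them past 2-fold. tRNA starts held 10 higher and 17 lower among 42, and rRNA starts 13 higher and 5 lower among 93. Over all positions, those of miRNAs included, 360 were left without multiply placed reads, 45 higher and 8 lower.

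tRNA pieces divided by the end of the tRNA they came from. Pieces that begin at the tRNA 5′ end had 7059 reads in early arousal, 2960 in late torpor and 3235 after reproduction, a ratio of 2.15 (2.06 to 2.25). Pieces that end at the CCA had 217 reads in early arousal, 1745 in late torpor and 136 after reproduction, a ratio of 0.112 (0.0970 to 0.129). Other tRNA pieces had 3107, 5240 and 1695 reads and a ratio of 0.535 (0.512 to 0.560). tRNA reads summed over all pieces hid this, with 10383 against 9945 reads and a ratio of 0.942. Early arousal was thus the high library for 5′ pieces and late torpor the high library for CCA pieces, with post-reproduction near the lower of the 2 in both.

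Among 17 tRNAs with at least 30 reads of 5′ pieces, 7 were at least 2-fold higher in early arousal and none was lower by that factor. Of all starts outside miRNAs, 15.6% were higher and 6.05% lower by that factor. Those starts needed at least 100 reads and include tRNA starts and near copies of miRNAs. The tRNA-Lys-CTT piece had 590 reads in early arousal, 146 in late torpor and 122 after reproduction and a ratio of 3.65 (3.04 to 4.40). The initiator tRNA-iMet piece had 203, 35 and 75 reads, a ratio of 5.24 (3.64 to 7.73), and the tRNA-Cys piece 95, 6 and 17 reads, a ratio of 14.3 (6.33 to 39.9). tRNA-Gly-GCC, whose 5′ piece is common in mammalian tissue, had 800, 309 and 466 reads and a ratio of 2.34 (2.05 to 2.67). tRNA-Ala had 2.12 and tRNA-Gly-CCC 2.22. A start that differs from the tRNA-Ala piece at a single base was left unassigned and is outside the tRNA counts. It had 820 against 649 reads and a ratio of 1.14 (1.03 to 1.27). tRNA-Lys-TTT, with 1274 against 649 reads, had 1.77 (1.61 to 1.95) and tRNA-Pro 1.65 (1.37 to 1.99). The 5′ pieces of tRNA-Val, tRNA-Ser, tRNA-Leu-CAG, tRNA-Asn and tRNA-Gly-TCC had ratios between 0.871 and 0.989, each with an interval that held 1.

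For CCA pieces, 8 of 9 tRNAs with at least 30 reads were at least 2-fold lower in early arousal and none had a ratio above 1. Of all starts outside miRNAs with at least 100 reads, which include tRNA starts, 6.05% were lower by that factor. The tRNA-Thr piece had 18 reads in early arousal, 655 in late torpor and 10 after reproduction, a ratio of 0.0248 (0.0146 to 0.0395). The tRNA-Pro piece had 32, 343 and 17 reads, a ratio of 0.0842 (0.0567 to 0.121). Those of the glutamine tRNAs had 18 against 146 reads for tRNA-Gln-TTG and 9 against 103 for tRNA-Gln-CTG. The tRNA-Ile piece had no read in early arousal, 67 in late torpor and 1 after reproduction, so it was at least 24.7-fold lower, taking 3 counts as the limit for 0 reads and the late torpor count as it stands. Its counting interval, which covers the error of both counts, reached up to a ratio of 0.0511. tRNA-Leu-CAG at 0.237, tRNA-Ser at 0.201 and tRNA-Val at 0.285 followed. tRNA-Tyr, with 17 against 16 reads, was the exception at 0.959 (0.456 to 2.03). Inserts of 16 to 22 nt outside miRNAs were also tallied by their end, without names. In early arousal 2.78% ended in CCA (1683 reads), in late torpor 6.78% (2866 reads) and after reproduction 2.36%. This tally recounts the named CCA pieces of these lengths, so it is no separate support. The remaining inserts that end in CCA were not compared.

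**Figure D3:**
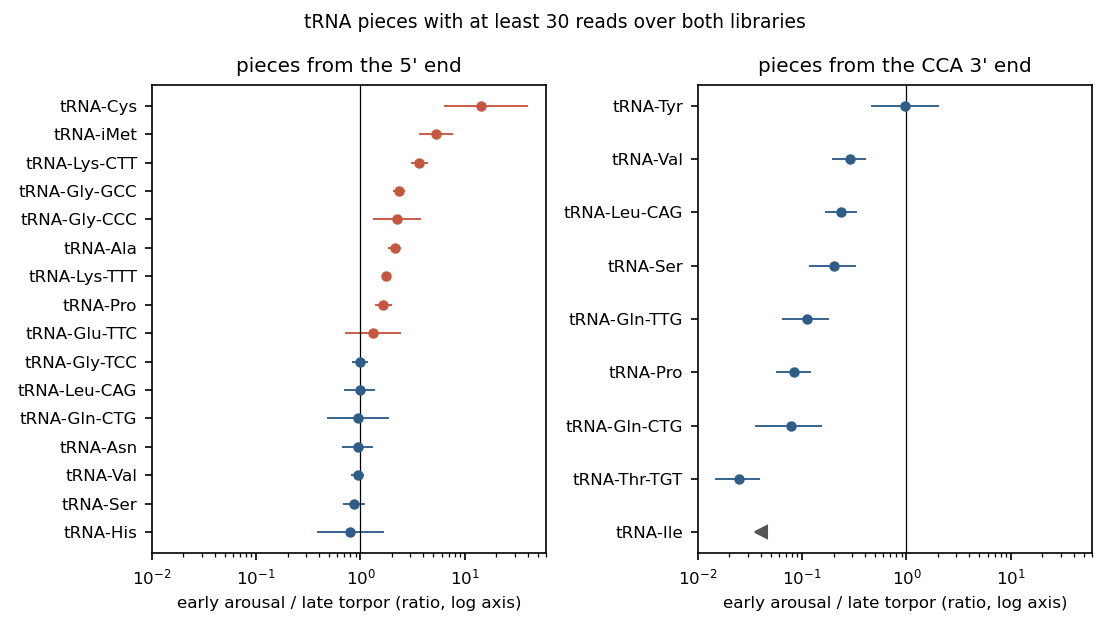
Ratio of early arousal to late torpor (log axis) of tRNA pieces from the 5′ end (left) and from the CCA end (right), by tRNA, with 95% counting intervals. The left-pointing triangle for tRNA-Ile marks 3 counts in place of the 0 reads in early arousal. The 5′ pieces drawn run from 0.802 to 14.3, 1 of the 17 tRNAs is not drawn, and all 9 CCA pieces lie below 1.

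Length divided the tRNA pieces as well. Of the 5′ pieces, 4904 reads in early arousal and 1383 in late torpor showed no adapter, as reads of inserts over 25 nt must, a ratio of 3.20 (3.01 to 3.40). That was 69.5% against 46.7% of the 5′ pieces. The 5′ pieces of 20 to 24 nt had 495 against 565 reads and a ratio of 0.791. The higher level in early arousal thus lay in the long 5′ reads, with smaller parts at 25 nt (351 against 190 reads) and 19 nt (1023 against 513 reads). Inserts of 18 nt made up most CCA pieces in late torpor, 1323 of 1745 reads, against 99 reads in early arousal, a ratio of 0.0675 (0.0545 to 0.0829). CCA pieces of 22 nt differed less, with 57 against 135 reads and a ratio of 0.381 (0.275 to 0.523). Among the other tRNA pieces, inserts of 17 nt had 153 against 873 reads, a ratio of 0.158 (0.132 to 0.188), and inserts of 22 nt had 177 against 175. Inner pieces without a found adapter were near level, with 850 against 673 reads and a ratio of 1.14 (1.03 to 1.26), while CCA pieces of that kind had 14 against 113 reads. A shift with length was not confined to tRNA. The rRNA pieces not from a 5′ end had a ratio of 0.893 at 20 to 24 nt and 1.77 without a found adapter. Reads of named miRNAs had 0.811 and 1.08, and unnamed starts 1.13 and 1.55. Shifted starts of named miRNAs went the other way, at 1.04 and 0.959. The part of a library-wide length difference in these results was not tested.

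Within single tRNAs both directions occurred. tRNA-Pro had a ratio of 1.65 for its 5′ piece, 0.164 (0.144 to 0.187) for its inner pieces and 0.0842 for its CCA piece. tRNA-Lys-CTT had 3.65 for its 5′ piece and 0.334 (0.304 to 0.367) for its inner pieces, with 608 against 1641 reads. tRNA-Lys-TTT had 1.77 and 0.507 (0.414 to 0.620). For tRNA-iMet both were higher, at 5.24 and 2.09 (1.72 to 2.54). The lowest start outside miRNAs was an inner piece of tRNA-Pro, with 1 read in early arousal, 119 in late torpor and 0 after reproduction, a ratio of 0.00759 (0.000190 to 0.0431). Because tRNA genes occur in many copies, these reads were placed at several positions each and tRNAs of near-identical sequence share reads.

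**Figure D4:**
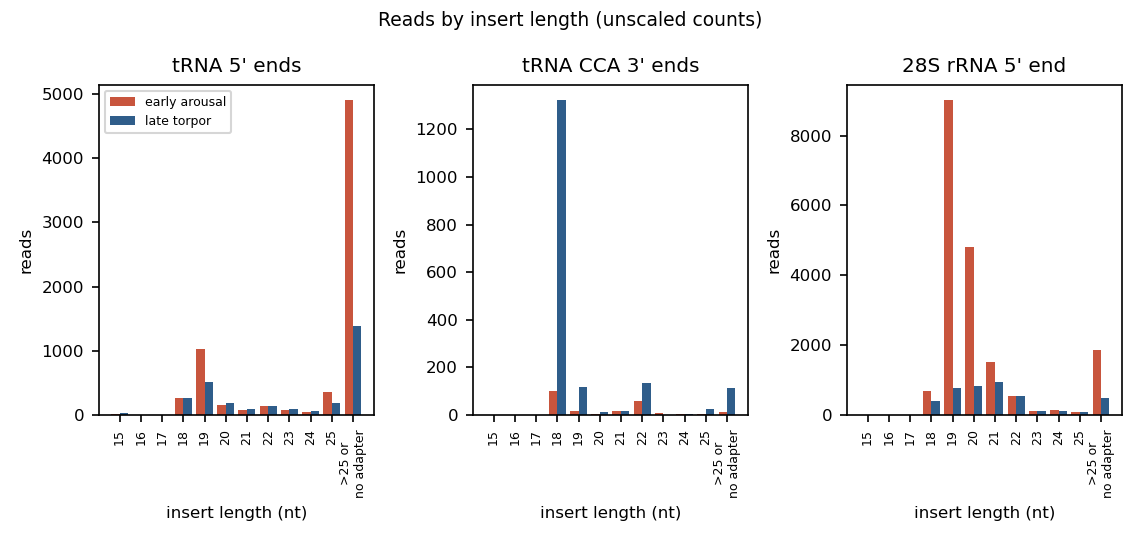
Unscaled read counts by insert length (nt) for tRNA 5′ pieces, tRNA CCA pieces and the piece from the 5′ end of 28S rRNA, in early arousal and late torpor. The last bar holds reads in which no adapter was found, which includes every insert over 25 nt. Early arousal is high in the long 5′ tRNA reads (4904 against 1383) and late torpor in CCA pieces of 18 nt (1323 against 99).

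Ribosomal RNA pieces were higher in early arousal at a few sites. The piece from the 5′ end of 28S rRNA had 18775 reads in early arousal, 4267 in late torpor and 17465 after reproduction, a ratio of 3.97 (3.84 to 4.11). Here late torpor was the low library, and early arousal lay level with post-reproduction when all lengths were summed. All other 28S pieces together had 25304 against 18644 reads and a ratio of 1.23 (1.20 to 1.25). A pair of starts 1 base apart inside 28S rRNA, chosen after values were seen, had 6648 reads in early arousal, 1707 in late torpor and 3000 after reproduction, a ratio of 3.52 (3.33 to 3.71). At the first of the pair the ratio was 5.38 (4.94 to 5.85), and at the second it was 2.39 (2.23 to 2.57). Without the pair the other 28S pieces summed to 18656 against 16937 reads, a ratio of 0.994 (0.974 to 1.02), which is above 1 under plain scaling. The pair was taken out because it was high, so a lower remainder was set in advance. That sum held starts on both sides of 1, such as 106 against 4 reads (ratio 23.9), 925 against 223 (3.74) and 209 against 301 (0.627). The 5′ piece differed by length: at 19 nt there were 9012 against 757 reads, a ratio of 10.7 (9.98 to 11.6), at 21 nt 1529 against 946, a ratio of 1.46, and at 22 nt 541 against 542. Between these, at 20 nt, there were 4801 against 827 reads, a ratio of 5.24 (4.87 to 5.65). Inserts of 19 nt made up 48.0% of this piece in early arousal, 17.7% in late torpor and 18.5% after reproduction. Those of 20 nt made up 25.6%, 19.4% and 48.7%, so early arousal and post-reproduction differed in length. The 5′ end of 5.8S rRNA had 331 against 139 reads, a ratio of 2.15 (1.76 to 2.64). 18S rRNA had 2639, 1961 and 5260 reads in the 3 libraries and a ratio of 1.21 (1.15 to 1.29), and 5S rRNA a ratio of 1.18 (0.970 to 1.45).

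Y RNA pieces were higher in early arousal for all 4 Y RNAs. Y RNAs are short RNAs bound by the Ro protein that act in RNA quality control and DNA replication. Y4 RNA, the most abundant, had 28637 reads in early arousal, 14111 in late torpor and 16003 after reproduction, a ratio of 1.83 (1.80 to 1.87). Y1 RNA had 4488, 2478 and 2595 reads and a ratio of 1.63 (1.56 to 1.72). Y3 RNA had 1199, 754 and 841 reads and a ratio of 1.44 (1.31 to 1.57). Y5 RNA was rarer, with 233, 39 and 91 reads, and had the highest ratio at 5.39 (3.83 to 7.78). For Y1, Y3 and Y4 the late torpor and post-reproduction levels lay close together. No adapter was found in 89.7% of Y RNA reads in early arousal and 87.5% in late torpor, so most were longer than 25 nt or unread at the end. U2 snRNA, a part of the spliceosome, had 1499, 863 and 829 reads and a ratio of 1.57 (1.44 to 1.71).

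**Figure D5:**
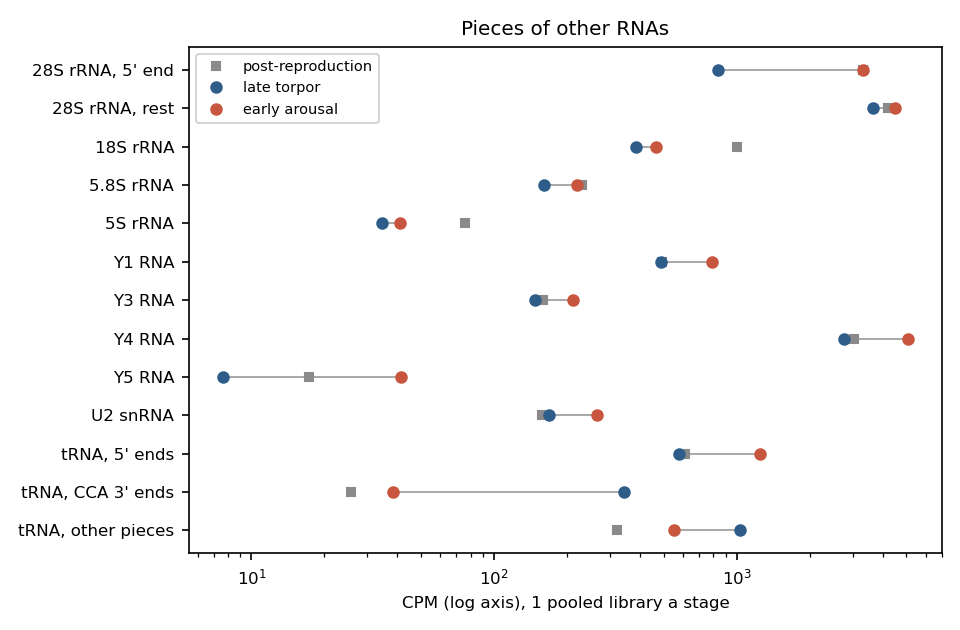
Level of pieces of rRNA, Y RNA, U2 snRNA and tRNA in CPM (log axis), 1 point per pooled library. Early arousal lies right of late torpor for every rRNA, Y RNA and U2 row and for tRNA 5′ ends, and left of it for the CCA ends and other tRNA pieces.

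Among 73 read starts to which no RNA was assigned, 12 (16.4%) were at least 2-fold higher in early arousal and 1 (1.37%) was lower. The higher share was near the 15.6% of all starts outside miRNAs. Some of the 73 differ from named pieces at few bases, such as the start near tRNA-Ala given above and 1 near Y4 RNA at a ratio of 4.51. The 73, and the 66 below, thus hold more than unidentified RNAs. The 3 sequences below carry tgatga, in capitals, the letters of the C box found in box C/D small nucleolar RNAs. Those RNAs guide the methylation of rRNA. The letters were searched on the read strand only, a match is not an identification, and the box itself was chosen after the reads had been seen.
unassigned read A: cattctgaaggaaaaagtatgTGATGAcat
unassigned read B: cctggaTGATGAtaagaagataactgatt
unassigned read C: gaacaTGATGAttggagttcgcatgata
The start of read A had 1046 reads in early arousal, 29 in late torpor and 140 after reproduction, a ratio of 32.6 (22.5 to 48.9), the highest of any start position. It was placed at 2 positions. The start of read B had 640, 54 and 191 reads and a ratio of 10.7, and that of read C had 680, 173 and 410 reads and a ratio of 3.55. In all 3, early arousal was the highest library and late torpor the lowest. Of the 7 starts whose commonest read held these letters, 4 were at least 2-fold higher and none lower, with a median ratio of 3.55. Another start of that set began 1 base after read B, so these are not 7 separate RNAs. It held more reads than the start of read B, 1752, 407 and 1198, and had a ratio of 3.89 (3.49 to 4.34). Of the 66 without them 8 were higher and 1 lower, with a median of 1.13.

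The ends of abundant miRNAs differed little. In 42 miRNAs with 1000 or more inserts on both sides, the share of the main insert length was compared, and the difference ran from -4.0 to 5.3 percentage points, with intervals apart for 6 (14.3%). miR-222-3p of 23 nt made up 50.4% of its inserts in early arousal, with an interval of 48.7 to 52.0, against 45.1% (43.3 to 46.8). miR-122-5p of 22 nt made up 36.6% in early arousal and 39.9% in late torpor. let-7d-5p of 22 nt made up 62.4% and 59.3%, and miR-221-3p of 23 nt 41.2% and 38.6%.

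Inserts that end in bases not placed on the genome, as tailed miRNAs do, were a larger share in early arousal for 36 of 39 miRNAs, by a median of 1.6 points, with intervals apart for 18 (46.2%). miR-181a-5p had the widest gap, 29.1% (27.9 to 30.4) against 24.3% (22.8 to 25.8), followed by miR-30d-5p at 38.2% against 34.3% and miR-320a-3p at 45.1% against 41.4%. Ends of 2 or more bases made up most of the difference, higher for 37 of 39 miRNAs with a median of 8.31% against 6.75%. Single added G was higher in early arousal for 29 and lower for 8, with medians of 0.350% against 0.266%. Single added A was higher in early arousal for 22 and lower for 16, and single added T likewise for 22 and 16. Reads without a found adapter and near copies were also more frequent in early arousal, as given above, and their part in this was not tested.

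The main 5′ start was compared for 38 miRNAs. Intervals stood apart for 4 (10.5%). The widest gap was that of miR-140-3p, shown with the seed of its listed start in capitals.
miR-140-3p: tACCACAGggtagaaccacggac
For miR-140-3p the start 1 base after the listed one, which moves the seed, held 74.7% of reads in early arousal, interval 74.0 to 75.3, against 68.7% (68.0 to 69.4), 5.9 points apart. The others lay between -2.1 points for miR-124-3p and 1.7 points for miR-101-3p.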

How the data were processed

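Per the labels' protocols, RNA of 18 to 30 nt was cut from a gel from about 10 µg of pooled RNA per stage, ligated, amplified by 15 PCR cycles and sequenced. The authors deposited 1 table of placed reads, each entry joining a read sequence of 30 bases, its raw read count and its stage, so the unit is a read count inside text and is handled as another unit than a numeric column. No label or header names the aligner, genome build or filters. The authors' table lists a multiply placed read with 1 count at every position (0 exceptions in 4218154 entries), so each distinct read was counted once per stage. On the minus strand the listed position is the 3′ end of the placed part, and 5′ starts were computed from it. The 3′ adapter was searched with up to 1 mismatch and a minimum of 5 bases, which reads inserts from 15 to 25 nt.

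Reads were summed by their first 18 bases. Names of miRNAs and other RNAs come from general knowledge, attached to sequences read from the table, and no miRNA reference or genome was used here. Groups shared by 2 miRNAs were split at the first base that differs, or equally. The listed mature sequence of a miRNA is its commonest insert over early arousal and late torpor. Near copies were read starts within 3 mismatches of a miRNA with at least 1000 reads, or 5 mismatches of the 10 most abundant. Scaling used a trimmed mean of log ratios, TMM (30% on ratio, 5% on abundance), computed directly in Python 3.11.15 with numpy and scipy. A count of 3, or 0.531 and 0.588 CPM in early arousal and late torpor, is the limit that 0 reads allow. Intervals are exact (Clopper-Pearson) at 95%, and PCR copies are not separate molecules. The code was tested on simulated counts. Members and lists were chosen with earlier results of these data known. Named were the miRNAs at least 1.5-fold different, abundant miRNAs, list members, the extreme read starts and the isoforms that differed most. The tRNA, rRNA and Y RNA parts, their lengths and reads A to C were chosen after values were seen. 1 tRNA is not reported here by name, although sums and counts over tRNAs include it.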

Additional observations from a re-analysis of the deposited data

How the results depend on the processing

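Every value rests on 1 library a stage, and no setting replaces a replicate. No paired analysis was possible because each stage has 1 pooled library and no result comes from a test. Reported were 16 higher and 10 lower miRNAs of 127. Higher miRNAs numbered 29 under plain scaling, 28 under scaling to all placed reads, 10 without multiply placed reads (of 90 left) and 2 at a minimum of 1000 reads. Lower miRNAs numbered 6 without multiply placed reads and 2 at a minimum of 1000 reads. All 16 higher miRNAs stayed past the limit under the 3 other scalings, and 7 of the 10 lower ones did under plain scaling. Start positions at least 2-fold higher, 739 as reported, numbered 1396 under plain scaling, 1275 under scaling to all placed reads, 45 without multiply placed reads, 44 at a minimum of 1000 reads and 72 with each start outside miRNAs counted once, the last chosen after seeing the data. Lower positions, 791 as reported, numbered 8 without multiply placed reads, 8 at a minimum of 1000 reads and 28 counted once. Fewer reads or positions enter these counts by construction. Other settings kept the counts within 1.5 times, and none turned the ratio of a miRNA past 1.5-fold to the other side of 1. Reads identical to the listed mature sequence gave 12 higher and 9 lower. With them miR-383-5p and miR-452-5p each stood at 1.49, and miR-433-3p at 1.47 without multiply placed reads. An adapter search with no mismatch left 7 miRNAs with main length intervals apart and 17 with tailed intervals apart. Reads placed once left 3 with start intervals apart.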

Other observations

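miR-151-3p occurred in 2 forms that differ at A10G (position 10 from the 5′ end). The first form had 517 reads in early arousal, 270 in late torpor and 281 after reproduction, and the second 385, 377 and 678. The first form thus made up 57.3% (54.0 to 60.6) in early arousal, 41.7% (37.9 to 45.6) in late torpor and 29.3% (26.4 to 32.3) after reproduction. The forms were placed at different scaffolds, the first over 18 of its 22 nt and the second over all 22. Each library pools several animals, and which animals carried which form was not analysed here.

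The 5′ piece of mitochondrial tRNA-Leu also occurred in 2 forms, which differ at C18T. The first form had 894, 527 and 485 reads in early arousal, late torpor and post-reproduction, and the second 127, 650 and 293. The first form made up 87.6% (85.4 to 89.5) in early arousal, 44.8% (41.9 to 47.7) in late torpor and 62.3% (58.8 to 65.8) after reproduction. The first was placed at 1 position and the second at 225. Both forms together had 1021 against 1177 reads and a ratio of early arousal to late torpor of 0.783 (0.719 to 0.852).

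Pieces of mitochondrial 16S rRNA had 53 reads in early arousal, 28 in late torpor and 3046 after reproduction. Near copies of abundant miRNAs in which every differing base was read as G made up 0.639% of placed reads in early arousal, 0.350% in late torpor and 0.611% after reproduction.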
